A study of Mus musculus with 24 samples.

Results

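The genes described here are 8 of the interleukin-6 (IL-6) cytokine family: the ligands Il6, Osm, Lif and Il11 and the receptor chains Il6ra, Osmr, Lifr and Il11ra1. They were taken by symbol from the 55401 gene identifiers in the deposited counts, and all 8 passed the filter on low counts in every comparison. The set was selected on its measured levels, which are log2 CPM (counts scaled to library size by edgeR's TMM method) in the 10 groups of tumors and were already known. Those levels, and the fold changes and p-values made from them, are therefore given as a description of these tumors and not as independent evidence.

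The ligands of the family signal through receptor complexes that share the chain gp130, encoded by Il6st. IL-6 and IL-11 recruit gp130 through Il6ra and Il11ra1, LIF joins Lifr to gp130, and oncostatin M in mice acts mainly through Osmr and gp130. The receptors activate JAK kinases and the transcription factor STAT3, which induces Socs3, the feedback inhibitor, and genes of the acute phase. In bone, the family is known for acting on both osteoblasts and osteoclasts.

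RNA was sequenced from 24 tumors of male C57/BL6 mice, 8 to 10 weeks of age, that carried TC2Ras cells, a single line of mouse prostate adenocarcinoma that was made from TRAMP-C2 and carries activated H-Ras. The 4 subcutaneous (SC) tumors were taken a week after implantation, 2 from mice given a vector for IL-27 (SC IL-27) and 2 from mice given an empty vector (SC control). The 20 intratibial tumors grew from TC2Ras-Luc cells in the tibia, with 3 tumors per group on day 14 (D14) and 2 per group at the ethical endpoint, called EOS, so the day of EOS differed between mice. The 4 intratibial groups received the control vector (control), the IL-27 vector (IL-27), the control vector with the tyrosine kinase inhibitor cabozantinib (cabo), or both the IL-27 vector and cabo (IL-27+cabo).

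Vectors were delivered to muscle by sonoporation and not into the tumor. The encoded IL-27 carried a peptide that targets the receptor encoded by Il6ra. Cabo was given by gavage, with the vehicle to the other groups, and only in the first weeks, so the EOS tumors of the cabo groups were without it after that. Each intratibial tumor bears its own mouse number. For the SC tumors the labels do not say whether they came from separate mice, and their p-values then measure only the spread between those tumors.

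Each library held between 63729005 and 83782258 counts. The tumor of mouse 20, D14 IL-27+cabo, stood apart. Pearson's r of log2 CPM across genes was 0.908 with either tumor of its group, against 0.953 or more for all other pairs within a group. Il6ra had 535 counts there and at least 1939 in every other intratibial tumor, while Il11ra1 had 8223 counts there and at most 4896 in the others. Of the prostate genes checked, Hoxb13 and Pbsn were at 0 in every group.

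The promoters of Il6, Lif and Osmr are shown because the results turn on these genes, Il6 in the SC tumors and Lif and Osmr with cabo. Each is the 250 bases before the transcription start in RefSeq on GRCm38.p6, 5′ to 3′ on the strand of the gene, with matches to the searched motifs in capitals. The Il6 promoter is chr5:30012864-30013113 on the plus strand, the Lif promoter chr11:4257318-4257567 on the plus strand and the Osmr promoter chr15:6874314-6874563 on the minus strand.
Il6: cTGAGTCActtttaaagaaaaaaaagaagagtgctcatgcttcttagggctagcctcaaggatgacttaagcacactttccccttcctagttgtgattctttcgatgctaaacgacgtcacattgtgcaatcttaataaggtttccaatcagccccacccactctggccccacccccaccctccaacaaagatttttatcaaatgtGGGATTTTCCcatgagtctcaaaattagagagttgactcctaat
Lif: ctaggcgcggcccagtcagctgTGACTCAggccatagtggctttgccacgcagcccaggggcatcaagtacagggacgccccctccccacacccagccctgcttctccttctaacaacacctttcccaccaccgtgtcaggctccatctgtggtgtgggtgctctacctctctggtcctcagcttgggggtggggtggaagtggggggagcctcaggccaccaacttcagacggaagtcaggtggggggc
Osmr: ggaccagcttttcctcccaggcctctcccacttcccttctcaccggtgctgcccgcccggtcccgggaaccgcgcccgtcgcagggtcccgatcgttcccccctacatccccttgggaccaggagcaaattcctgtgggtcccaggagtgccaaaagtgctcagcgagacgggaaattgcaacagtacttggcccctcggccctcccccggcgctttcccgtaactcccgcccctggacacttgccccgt
The Il6 promoter held TGAGTCA, a match to the AP-1 motif TGANTCA, from 249 to 243 bases before the start, and GGGATTTTCC, a match to the NF-kB motif (these letters with any base at the fifth position), from 44 to 35 bases before it. The Lif promoter held the AP-1 match TGACTCA from 228 to 222 bases before the start. The STAT motif TTCNNNGAA and TATAAA were also searched on both strands, and the Osmr window matched none of the 4 motifs. Among 32851 promoter windows of the same length, 6.75% held the AP-1 motif, 0.356% the NF-kB motif, 7.02% the STAT motif and 12.4% TATAAA. Of the other members, Il6ra, Il11ra1 and Lifr had no match and of the starts listed for Il11 the more downstream had an AP-1 match from 98 to 92 bases before it.

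In GENCODE M21 on GRCm38, Il6 (ENSMUSG00000025746) lies at chr5:30013114-30019981. Osm (ENSMUSG00000058755, chr11:4236420-4241026) and Lif (ENSMUSG00000034394, chr11:4257557-4272514) lie 16530 bases apart. Osmr (ENSMUSG00000022146, chr15:6813577-6874969) and Lifr (ENSMUSG00000054263, chr15:7090614-7197489) lie 215644 bases apart, with 0 protein-coding genes between the members of either pair. Il11 (ENSMUSG00000004371) lies at chr7:4772373-4782859, Il6ra (ENSMUSG00000027947) at chr3:89864059-89913196 and Il11ra1 (ENSMUSG00000073889) at chr4:41699989-41769474. Exons of Gm42809 overlap those of Il6ra on the opposite strand, and exons of Ccl27a those of Il11ra1. Il11ra1 also has the near-identical copies Il11ra2 and Gm13305, which had at most 52 counts in a tumor, so its counts are uncertain.

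The receptor chains were more abundant than the ligands. Per kilobase of exon, the median over the 20 intratibial tumors was 11.8 CPM for Il11ra1, 4.26 for Il6ra, 2.72 for Osmr and 2.32 for Lifr. Among the ligands it was 1.05 CPM per kilobase for Lif, 0.748 for Osm, 0.458 for Il11 and 0.196 for Il6. On the scale of CPM per gene, from here on, Osm ranged 26.5-fold over these tumors, from 0.170 to 4.50. The lowest of these values was 12 counts in an EOS IL-27 tumor, so that range rests on few counts. Lifr ranged 2.71-fold, from 11.9 to 32.2 CPM. Il6 was at 0 counts in 1 EOS control tumor and reached 111 counts in a D14 cabo tumor, so its intratibial values rest on few counts.

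**Figure D1:**
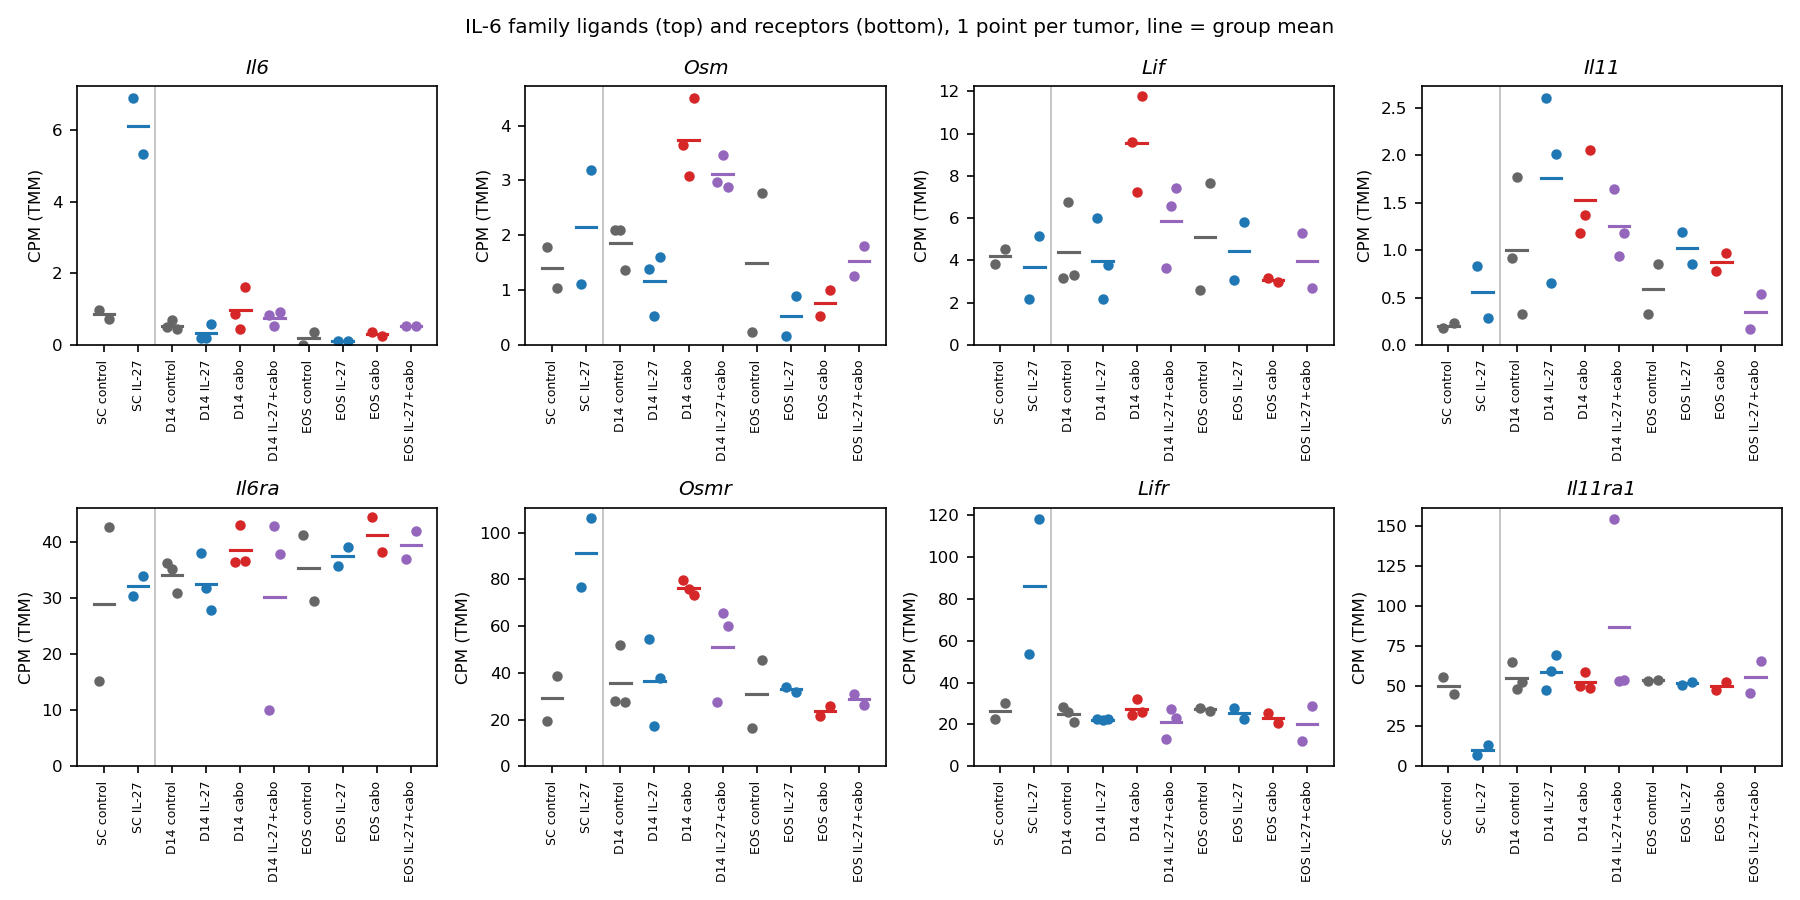
Level of each gene in CPM after TMM scaling (linear axis from 0), 1 point per tumor and a line at the group mean, with SC tumors left of the grey line and normalized apart from the intratibial tumors. Among the intratibial groups, Osmr, Lif and Osm had their highest means in the D14 cabo tumors, Il6 stood at 5.35 and 6.89 CPM in the SC IL-27 tumors, and Il11ra1 at 154 CPM in mouse 20.

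The SC comparison asked what the IL-27 vector changed in the tumors. Il6, Osmr and Lifr were higher and Il11ra1 was lower in the SC IL-27 tumors, while Osm, Lif, Il6ra and Il11 did not pass the test. With an edgeR adjusted p under 0.05, 3 of the 8 genes were higher, as were 3.52% of all 19360 genes tested, and 1 was lower, as were 16.5%. The groups did not overlap for 5 of the 8, against 66.9% of all genes. The median log2 fold change of the 8 was 1.03, and that of all genes 0.04.

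Il6, the ligand that gives the family its name, was at 6.89 and 5.35 CPM in the SC IL-27 tumors and at 0.978 and 0.721 CPM in the SC control tumors. Both treated tumors were above both controls, a 7.19-fold difference (log2 fold change 2.85, SE 0.53, edgeR adjusted p = 0.0105). Osm was at 1.10 and 3.19 CPM with IL-27 and 1.78 and 1.03 CPM without it. Lif was at 2.19 and 5.14 CPM with IL-27 and 3.84 and 4.54 CPM without it, so both ligands overlapped between the groups. Il11 was at 0.836 and 0.282 CPM with IL-27 and 0.176 and 0.231 CPM without it, which did not pass the test (log2 fold change 1.45, SE 1.01, edgeR adjusted p = 0.345).

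Osmr, the signalling chain for oncostatin M, was at 76.6 and 106 CPM with IL-27 and 19.4 and 38.8 CPM without it (log2 fold change 1.65, SE 0.43, edgeR adjusted p = 0.0366). Lifr was at 53.8 and 118 CPM with IL-27 and 22.7 and 30.1 CPM without it (log2 fold change 1.70, SE 0.45, edgeR adjusted p = 0.0388). Il11ra1 was at 6.79 and 13.03 CPM with IL-27 and 55.5 and 45.3 CPM without it. This was the member that fell (log2 fold change -2.35, SE 0.43, edgeR adjusted p = 0.0101). Il6ra, whose product the vector's peptide targets, was at 30.4 and 33.9 CPM with IL-27. Its control tumors, at 15.3 and 42.8 CPM, lay on both sides of these.

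These calls changed with a correction for GC content and transcript length and with single tumors. After removal of the dependence of each library on GC content and transcript length, no member passed edgeR's test. Il6 then had a log2 fold change of 1.70 (edgeR adjusted p = 0.099), Osmr 1.18 (0.0586), Lifr 0.97 (0.244) and Il11ra1 -0.96 (0.140). At an unadjusted p under 0.05, Il6, Osm, Osmr and Il11ra1 passed in that fit, as did 4646 of the 19360 genes (24%), of which 1668 (8.62% of all) passed after adjustment. That fit removes GC content and length together, so their parts cannot be told apart. The transcripts of Il6 are 39.3% GC and those of Il11ra1 54.7%, the lowest and highest of the 8. Il6 passed whichever of the 4 tumors was left out. Osmr did not pass without SC IL-27 replicate 2 (adjusted p = 0.164 in edgeR) or SC control replicate 1 (0.107), and Lifr did not without SC IL-27 replicate 2 (0.318) or either control (0.188 and 0.0842). Without SC IL-27 replicate 2, the log2 fold change of Lifr was 1.01, and over the 4 omissions it ran from 1.01 to 2.15. Il11ra1 did not pass without SC IL-27 replicate 1 (edgeR adjusted p = 0.0535) or SC control replicate 1 (0.0695).

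**Figure D2:**
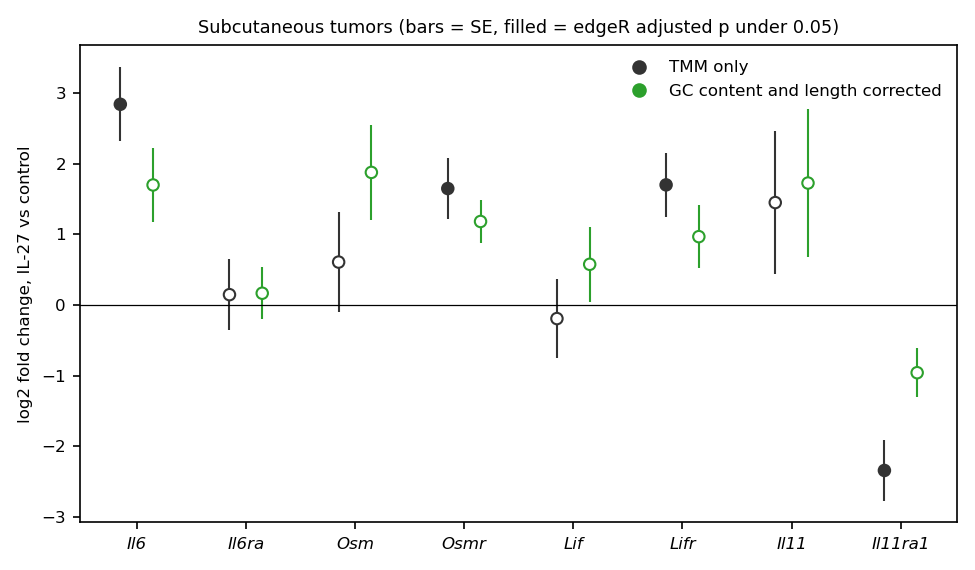
Log2 fold change of SC IL-27 against SC control tumors for each gene, with bars for the SE, with TMM scaling alone (dark) and with the trend of each library with GC content and length removed (green), filled where the edgeR adjusted p was under 0.05. The value for Il6 went from 2.85 to 1.70 and that for Il11ra1 from -2.35 to -0.96, and no green point is filled.

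Other genes of the pathway went in both directions in the SC tumors. Of 5 other ligands tested, Cntf was higher, at 3.51 against 0.354 CPM (log2 fold change 3.31, edgeR adjusted p = 0.0366). Clcf1, a ligand of the CNTF receptor, was lower, at 9.40 against 28.2 CPM (log2 fold change -1.58, edgeR adjusted p = 0.0422). Il6st was at 243 against 131.9 CPM and did not pass (log2 fold change 0.88, edgeR adjusted p = 0.197). Of 13 signal transduction genes, 5 fell and 0 rose, where 16.5% of all genes were lower and 3.52% higher. They were Tyk2, a JAK kinase, Stat5a, Stat5b, Pias3, an inhibitor of STAT3, and Socs3, whose log2 fold change was -1.94 (edgeR adjusted p = 0.0195). Stat3 was at 70.0 against 120.3 CPM and Jak2 at 150.1 against 64.1 CPM, and neither passed.

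Of 26 response genes, 4 rose and 5 fell, against the same 3.52% and 16.5% of all genes, so the number that fell was near that of genes in general. Their median log2 fold change was 0.23. The genes that rose were Saa3, an acute phase protein (17.4 against 2.43 CPM), the neutrophil chemokine Cxcl5, the RANKL decoy receptor Tnfrsf11b and the lipopolysaccharide-binding protein Lbp. The genes that fell were Socs3, Bcl3, Junb, the metallothionein Mt2 and Il4ra. With that dependence removed, 5 response genes passed, of which 1 was lower, and 1 signal transduction gene, which was lower, where 8.62% of all genes passed. The signal transduction genes that passed numbered 1 without SC IL-27 replicate 1, 2 without SC IL-27 replicate 2, 3 without SC control replicate 1 and 9 without SC control replicate 2, where the shares of all genes were 16.3%, 13.8%, 10% and 24.9%. Without SC control replicate 1, 4 response genes passed.

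Markers of other cells differed between these tumors as well. The summed level of 12 skeletal muscle genes was 345.9 to 1010 CPM in SC IL-27 and 4.94 to 15.9 CPM in SC control tumors. That of 10 neutrophil genes was 49.3 to 55.1 and 10.7 to 13.4 CPM, with Elane at 0 in some tumor of both groups. That of 9 macrophage genes was 1106 to 1549 and 1350 to 1556 CPM, and that of 8 fibroblast genes 5646 to 7851 and 4994 to 5873 CPM, so both of these overlapped. The 7 T cell genes summed to 24.1 to 31.7 CPM in SC IL-27 and 12.2 to 12.4 CPM in SC control tumors, the 7 endothelial genes to 375.6 to 795.4 and 273.3 to 347.8 CPM, and the 7 osteoclast genes to 63.2 to 120.2 and 61.6 to 62.4 CPM, with Calcr at 0 in some tumor of both groups. The 7 osteoblast genes summed to 110.8 to 125.0 and 63.3 to 73.7 CPM, with Bglap, Ibsp and Sp7 at 0 in some tumor of both groups. The 8 genes of prostate epithelium and the tumor line summed to 6.44 to 14.2 CPM in SC IL-27 and 44.5 to 116.7 CPM in SC control tumors, with Hoxb13, Krt5 and Pbsn at 0 in some tumor of both groups. Their part in the differences was not tested. In bulk tumors, fewer cells of a type and less RNA per cell cannot be told apart.

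The D14 comparison with cabo asked what the inhibitor changed in bone tumors while it was given. Osm, Osmr and Lif were each about as far above the controls, between 1.99-fold and 2.14-fold, yet none of the 8 genes passed edgeR's test, where 1.89% of 18627 genes did. At an unadjusted p under 0.05, 3 of the 8 passed, against 18.9% of all genes, and DESeq2 called those 3, as it called 1497 of the 18627 genes (8.04%). The groups did not overlap for Osm, Osmr, Lif and Il6ra, against 26.9% of all genes.

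Osmr was at 79.9, 75.8 and 73.2 CPM in the D14 cabo tumors and at 28.1, 51.8 and 27.3 CPM in the D14 controls. Every cabo tumor lay above every control (log2 fold change 1.07, SE 0.24, edgeR adjusted p = 0.0709). Osm, the ligand of Osmr, was at 3.65, 3.08 and 4.50 CPM with cabo and at 2.10, 2.10 and 1.36 CPM in the controls (log2 fold change 0.99, SE 0.26, edgeR adjusted p = 0.111). Lif was at 9.62, 7.25 and 11.8 CPM with cabo and at 3.17, 6.75 and 3.28 CPM in the controls (log2 fold change 1.10, SE 0.33, edgeR adjusted p = 0.144). Mouse 5 had the highest Osmr and Lif of the controls. Without it, Osmr (log2 fold change 1.44, edgeR adjusted p = 0.00235) and Lif (1.54, 0.0348) passed. No member passed when any other of the 6 tumors was left out, and over all 6 omissions the edgeR adjusted p ran from 0.00235 to 0.222 for Osmr (log2 fold change 0.91 to 1.44) and from 0.0348 to 0.345 for Lif (0.90 to 1.54).

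Il6 was at 0.876, 0.446 and 1.62 CPM with cabo and 0.505, 0.686 and 0.431 CPM in the controls, and the groups overlapped. Il6ra averaged 38.7 ± 3.78 CPM with cabo and 34.2 ± 2.91 CPM in the controls (SD, n = 3 each), Lifr 27.5 ± 4.20 and 25.1 ± 3.51 CPM, Il11 1.53 ± 0.462 and 1.00 ± 0.729 CPM, and Il11ra1 52.4 ± 5.45 and 55.4 ± 8.86 CPM. None of these 4 passed, and the lowest edgeR adjusted p among them was 0.482, for Il6ra.

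Among the pathway genes, 1 of 26 response genes passed in D14 cabo, where 1.89% of all genes did. It was the acute phase gene Serpina3n, which rose from 4.83 to 20.8 CPM (log2 fold change 2.09, edgeR adjusted p = 0.0134). The median log2 fold change of the response genes was 0.38, and that of all genes -0.01. No signal transduction gene passed edgeR's test, while 7 of 13 had an unadjusted p under 0.05, as did 18.9% of all genes. Il6st was at 225.4 CPM with cabo and 163.4 CPM in the controls (edgeR adjusted p = 0.0872).

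The muscle genes summed to 1234 to 1800 CPM in the D14 cabo tumors and 6.90 to 181.9 CPM in the D14 controls. With the muscle score of each tumor in the model, the log2 fold change of Osmr was 0.12, that of Lif -0.03 and that of Osm 0.99, with wider errors (SE 0.29, 0.51 and 0.58). The muscle sums of the 2 groups did not overlap, so the muscle score and cabo cannot be told apart in that fit, in which 0 of 18627 genes passed edgeR's test, against 352 without the score, and 1274 had an unadjusted p under 0.05. The neutrophil genes summed to 11.3 to 15.2 CPM with cabo and 7.32 to 9.20 CPM in the controls, with Elane, Mpo and Retnlg at 0 in some tumor of both groups. The fibroblast genes summed to 6792 to 7353 and 5696 to 6044 CPM, the macrophage genes to 980.6 to 1194 and 598.8 to 1273 CPM, and the 7 T cell genes to 20.3 to 29.4 and 69.0 to 77.2 CPM. The endothelial genes summed to 134.4 to 148.5 CPM with cabo and 161.9 to 269.6 CPM in the controls, while the osteoblast genes (86.0 to 88.2 and 63.9 to 101.1 CPM) and the osteoclast genes (195.9 to 304.3 and 283.7 to 427.5 CPM) overlapped, as did the prostate epithelium and tumor line genes (68.5 to 97.2 and 57.2 to 82.7 CPM). The part of these markers in the differences was not tested.

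With IL-27 alone on D14, no member passed edgeR's or DESeq2's test, nor did any of 18519 genes in edgeR's, and no member had an unadjusted p under 0.05, against 2.76% of genes. Osmr was at 54.5, 17.5 and 37.6 CPM, which spanned the controls, and Osm at 1.38, 0.526 and 1.60 CPM. No member separated the groups, against 7.78% of all genes.

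With IL-27+cabo on D14, Osm alone separated from the controls, which 15.1% of all genes did. It was at 2.98, 3.47 and 2.89 CPM (log2 fold change 0.76, SE 0.33, edgeR adjusted p = 0.807). No member passed edgeR's or DESeq2's test, where edgeR called 0.0640% of genes, and none had an unadjusted p under 0.05, against 6.20%. Osmr was at 27.7 CPM in mouse 20 and at 65.6 and 59.9 CPM in the other tumors, and Lif at 3.63 CPM in mouse 20 and at 6.60 and 7.41 CPM in the others. Without mouse 20, the log2 fold change of Osmr was 0.80 in place of 0.52, and its edgeR adjusted p was 0.285. Against D14 cabo and against D14 IL-27, no member of the IL-27+cabo tumors passed edgeR's or DESeq2's test, nor did any gene in edgeR's. At an unadjusted p under 0.05, 0 members passed against cabo (1.92% of all genes) and 1, Osm, against IL-27 (4.85%). The interaction of IL-27 and cabo on D14 passed the test for none of the 8, with an unadjusted p under 0.05 for none of them and for 1.88% of all genes, and the lowest adjusted p in edgeR was 0.952. All D14 comparisons with the control share the same 3 control tumors.

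**Figure D3:**
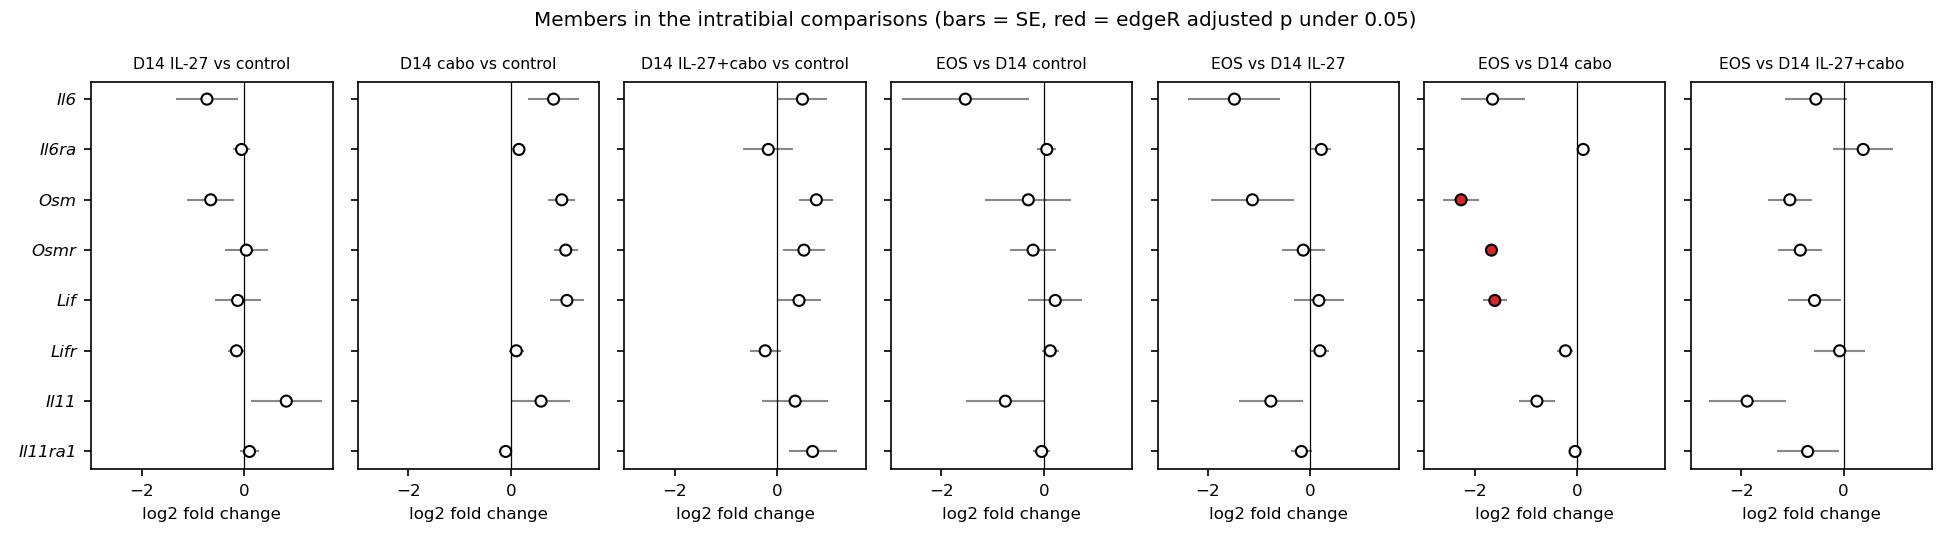
Log2 fold change of each gene, with bars for the SE, in the D14 comparisons with the control and in the comparisons of EOS with D14 within each treatment, in red where the edgeR adjusted p was under 0.05. The red points are Osm, Osmr and Lif at EOS against D14 in the cabo tumors, at -2.26, -1.67 and -1.61.

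Between D14 and EOS, Osm, Osmr and Lif fell in the cabo tumors, which had received the inhibitor only early. These 3 passed edgeR's test, where 1.14% of 19144 genes were called lower. This comparison uses the same 3 D14 cabo tumors as the comparison with the D14 controls, so high values in those tumors enter both.

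Osmr was at 21.4 and 25.7 CPM at EOS, below every D14 cabo tumor (log2 fold change -1.67, SE 0.10, edgeR adjusted p = 0.00181). It passed whichever of the 5 tumors was left out. Osm was at 0.533 and 1.00 CPM (log2 fold change -2.26, SE 0.36, edgeR adjusted p = 0.0368). Lif was at 3.18 and 2.99 CPM (log2 fold change -1.61, SE 0.23, edgeR adjusted p = 0.0286). Osm no longer passed once any 1 of the 5 tumors was left out, with edgeR adjusted p-values from 0.056 to 0.125. Lif passed only without mouse 25, and its edgeR adjusted p was otherwise 0.0668 to 0.149. With all 20 intratibial tumors in one fit, no member passed, and the log2 fold change of Osmr was -1.69 (edgeR adjusted p = 0.399).

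Il6 was at 0.369 and 0.243 CPM at EOS in the cabo tumors (log2 fold change -1.65, SE 0.62, edgeR adjusted p = 0.245). The groups did not overlap for Il6, Osm, Osmr, Lif and Il11, against 36.6% of all genes. Lifr averaged 23.1 ± 3.47 CPM at EOS and Il11ra1 50.1 ± 3.64 CPM (SD, n = 2), and both overlapped the D14 values.

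In the other treatments no member passed edgeR's or DESeq2's test between D14 and EOS, where edgeR called 0.104% of genes in the control tumors and 0 genes in the IL-27 and IL-27+cabo tumors. At an unadjusted p under 0.05, 0 members passed in the control, 0 in the IL-27 and 1 in the IL-27+cabo tumors, against 13.1%, 5.05% and 3.83% of all genes. Osmr in the EOS control tumors was at 16.3 and 45.3 CPM, Lif at 2.59 and 7.66 CPM and Osm at 0.234 and 2.76 CPM, with mouse 9 high and mouse 13 low for all 3 genes. In EOS IL-27, Osmr was at 34.1 and 31.7 CPM, and in EOS IL-27+cabo at 31.0 and 26.2 CPM. At EOS no member passed edgeR's or DESeq2's test between any treated group and the control, nor did any of the 20026 genes pass edgeR's, while DESeq2 called 23 genes in the IL-27 tumors, 270 in the cabo tumors and 937 in those with both. At EOS no member had an unadjusted p under 0.05, against 3.25% of genes in the IL-27 tumors, 8.90% in the cabo tumors and 14.2% in those with both. By group mean, Osmr ran from D14 cabo (76.3 CPM) through D14 IL-27+cabo (51.1) to the remaining D14 and EOS groups, between 36.5 and 23.6 CPM, whose neighbours in that order overlapped, except that EOS cabo, the lowest, did not overlap EOS IL-27+cabo.

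The difference between the cabo change at EOS and that on D14 was -1.48 for Osmr (SE 0.66), -1.85 for Lif (SE 0.75) and -1.98 for Osm (SE 1.07) on the log2 scale. Unadjusted p-values were 0.0391, 0.0264 and 0.0818, and each adjusted p in edgeR was 1, where 0.0788% of genes passed. These values rested on the EOS controls, of which there were 2. Without mouse 9 they were -0.54 for Osmr, -0.84 for Lif and 0.71 for Osm, and without mouse 13 they were -2.02, -2.41 and -2.84.

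Some genes downstream of gp130 passed the test between D14 and EOS in the cabo tumors, while most did not. Of 13 signal transduction genes, 3 fell and 0 rose, where 1.14% of all genes fell. Stat3 went from 229.3 to 142.3 CPM (log2 fold change -0.66, SE 0.07, edgeR adjusted p = 0.0109), Jak2 from 96.1 to 58.6 CPM (-0.69, SE 0.09, 0.0195) and Socs3 from 66.4 to 39.6 CPM (-0.72, SE 0.09, 0.0198). Il6st went from 225.4 to 179.8 CPM and did not pass (edgeR adjusted p = 0.118).

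Of 26 response genes, 8 fell and 0 rose, where 1.14% of all genes were called lower. Their median log2 fold change was -0.75 against 0.01 for all genes. The genes that fell were Socs3, the STAT3 targets Bcl3 and Pim1, the AP-1 subunit Junb, the secreted glycoprotein Lrg1, the monocyte chemokine Ccl2, the hyaluronan synthase Has2 and the interleukin-4 receptor chain Il4ra. Ccl2 went from 71.3 to 31.6 CPM (log2 fold change -1.15, edgeR adjusted p = 0.0109) and Il4ra from 95.6 to 45.9 CPM (-1.03, 0.00426). Serpina3n was at 20.8 CPM on D14 and 8.00 CPM at EOS, which did not pass (edgeR adjusted p = 0.251). Leaving out 1 tumor gave 0 to 3 signal transduction genes and 2 to 7 response genes. Without mouse 21 they were 0 and 2, without mouse 27 or mouse 23 they were 1 and 2, and without mouse 19 the response genes were 3. The share of all genes called ran from 0.331% without mouse 21 to 2.18% without mouse 19. With GC content and length corrected, 2 response genes passed, where 1.99% of all genes did. With all intratibial tumors in one fit, 0 of either list passed edgeR's test, where 0.246% of all genes did.

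**Figure D4:**
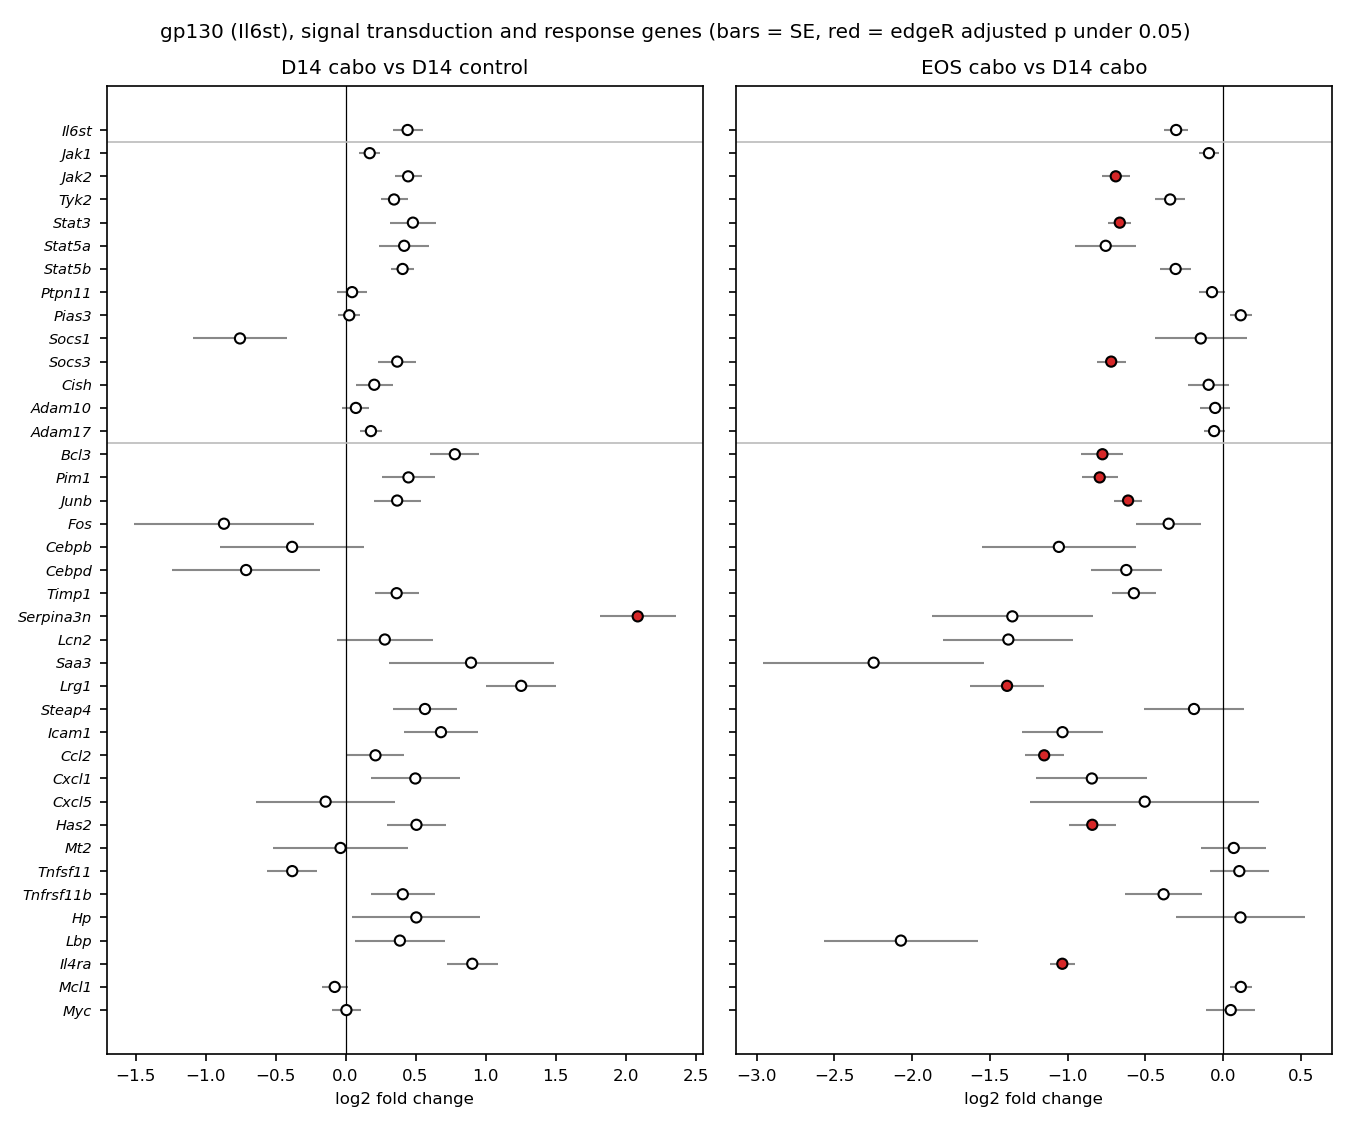
Log2 fold change, with bars for the SE, of Il6st (top), 13 signal transduction genes (middle) and the other 25 response genes (bottom) in D14 cabo against D14 control tumors (left) and in EOS cabo against D14 cabo tumors (right), in red where the edgeR adjusted p was under 0.05. Both panels use the D14 cabo tumors. Serpina3n is red on the left at 2.09, and the 10 red points on the right all lie below 0.

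The summed markers of other cells moved as well between D14 and EOS in the cabo tumors. Neutrophil genes went from 11.3 to 15.2 CPM down to 2.53 to 3.21 CPM, with Camp, Elane, Mpo, Ngp and Retnlg at 0 in some tumor at both times. Fibroblast genes went from 6792 to 7353 CPM down to 4285 to 5015 CPM, macrophage genes from 980.6 to 1194 CPM down to 707.9 to 730.4 CPM, T cell genes from 20.3 to 29.4 CPM down to 7.03 to 7.99 CPM, and muscle genes from 1234 to 1800 CPM down to 133 to 984.6 CPM. Endothelial genes went the other way, from 134.4 to 148.5 CPM up to 241.5 to 291.3 CPM, as did osteoblast genes, from 86.0 to 88.2 CPM up to 93.6 to 96.6 CPM. Osteoclast genes were at 195.9 to 304.3 and 265.1 to 551.9 CPM and overlapped. Prostate epithelium and tumor line genes went from 68.5 to 97.2 CPM down to 58.5 to 67.5 CPM. The part of these markers in the fall of the family was not tested.

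Across the 20 intratibial tumors, Pearson's r of log2 CPM was taken as the measure of likeness, as a description, since the tumors share groups. Osmr was most like Stat3 (r = 0.91), Lif (0.908), Sbno2, Has2 and Jak2 among all protein-coding genes that passed the filter. Lif was most like Sbno2 (0.946), then Osmr, Esrrg, Stat3 and Scin. Within groups, r between Osmr and Lif was 0.857, and without mouse 20 it was 0.907. Osm was most like Il1b (0.924), Ltb4r1, Samsn1, Cd53 and Hk3, and its r with Osmr was 0.713 and with Il6 0.829.

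The remaining genes shared other partners. Il6ra was most like Stk35, Fancm, Dlg5, Taok3 and Ankrd52 (r from 0.973 to 0.984), and Il11ra1 was most like Mrpl4, Cnpy2, Txn1, Commd1 and Ndufa8 (0.968 to 0.974). Over the 19 tumors without mouse 20, these r were 0.822 to 0.898 for Il6ra and 0.826 to 0.890 for Il11ra1. Il6ra and Il11ra1 had r = -0.868 over 20 tumors and -0.253 over the 19 without mouse 20, so that relation rested on 1 tumor. Lifr was most like Slc6a17 (0.826), Pmch, Pax3, Mettl16 and Ankrd6 (0.712 to 0.784 for the 5 without mouse 20), and Il11 was most like F2rl2 (0.778), Pdgfrl, Upp1, Msx1 and Maged2. Osmr and Lifr, neighbours on chromosome 15, had r = 0.234.

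**Figure D5:**
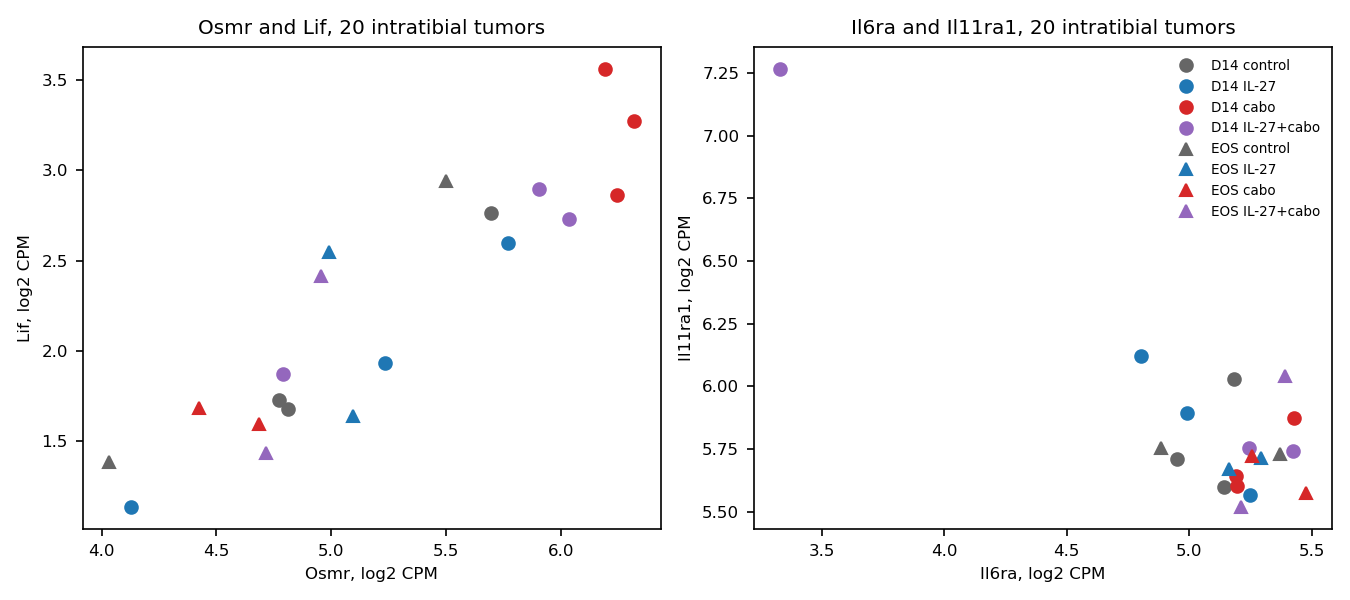
Log2 CPM of Osmr against Lif (left) and of Il6ra against Il11ra1 (right) in the 20 intratibial tumors, with circles for D14, triangles for EOS and colours for the treatment. The D14 cabo tumors lie at the upper right on the left panel, and mouse 20 lies alone at the upper left on the right panel.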

How the data were processed

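Stranded poly(A) libraries of 24 tumors were sequenced in pairs. Per the study's methods, cutadapt trimmed the reads, HISAT2 aligned them, and StringTie and ballgown gave expression levels. The counts deposited by the authors are whole numbers per Ensembl identifier and are not normalized, and the program that made them and the annotation are not given in the sources used here. The submitters' processing notes also list FastQC, DESeq2 and GRCh38, a human build, whereas the identifiers are of mouse. The library names call the intratibial vectors pIL27 and pORF0, and the methods describe pTSTA vectors. Between 30.4% and 35.5% of the low values of a library were multiples of 4, so the counts may exceed the fragments behind them.

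Of 55401 identifiers, 55141 were found in GENCODE M21. Counts were filtered (filterByExpr), scaled by TMM and compared by edgeR's quasi-likelihood F test (edgeR 4.0.16, R 4.3.3), two-sided, with Benjamini-Hochberg adjustment over all genes tested and a threshold of 0.05. Only the compared groups entered a fit, except that EOS comparisons used all EOS tumors, the interaction all D14 tumors and the cabo change all intratibial tumors. Log2 CPM used a prior count of 2. SC and intratibial tumors were normalized apart. Alternatives were DESeq2 1.42.0, RLE size factors, no filter, spline removal of GC content and length trends (5 degrees of freedom), counts divided by 4, one fit for all intratibial tumors, the muscle score as a covariate, a replicate block for SC tumors and leaving out each tumor. The genes named are the 8 members, genes of the ligand, receptor and signal transduction lists, response genes that passed the test, and the 5 genes most like each member with a mean of at least 1 CPM. The members and lists were chosen with earlier results of these data known. The fits of the response and signal transduction lists under the alternatives, and the correlations without mouse 20, were added after seeing the data. The scripts were tested on simulated data. Some genes of the lists are not reported here.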

Additional observations from a re-analysis of the deposited data

How the results depend on the processing

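Of the 8 genes, the number that passed edgeR's test in the SC tumors was 4 as reported, 2 without the filter on low counts, 0 with GC content and length corrected, and 1 (Osmr) with the replicate block and that correction. The replicate block alone gave 4. The shares of all genes called were 20%, 10.8%, 8.62%, 12.3% and 21.9% in these fits, in that order. Numbers 1 and 2 were not shown to pair the SC tumors, since the deviations of same-numbered tumors had r = 0.0313 across genes. Leaving out 1 SC tumor gave 1 to 3 members, 1 to 9 signal transduction genes and 4 to 9 response genes. In the SC tumors the signal transduction genes that passed numbered 10 with DESeq2, 8 with counts divided by 4, 1 with GC content and length corrected and 1 with the block and correction, and the response genes 14 with DESeq2 and 5 with the correction. DESeq2 called 31.9% of all genes there, edgeR 27.9% with counts divided by 4 and 10% to 24.9% without 1 tumor. For D14 cabo against control, DESeq2 called 3 members and leaving out 1 tumor gave 0 to 2 (8.04% and 0.415% to 3.06% of all genes). For EOS against D14 cabo, 1 member passed without the filter, 0 with all intratibial tumors in one fit and 1 to 2 without 1 tumor. In that comparison the signal transduction genes numbered 5 with DESeq2, 1 without the filter, 0 in one fit and 0 to 3 without 1 tumor, and the response genes 2 without the filter, 2 with GC content and length corrected, 0 in one fit and 2 to 7 without 1 tumor. There 9.08% of all genes passed with DESeq2, 0.386% without the filter, 1.99% with the correction, 0.246% in one fit and 0.331% to 2.18% without 1 tumor. In the other comparisons no member passed under any alternative tried.

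Some fold changes that did not pass also changed sign. In the SC tumors, the log2 fold change of Lif was 0.58 with GC content and length corrected, 0.47 with the replicate block and that correction, and -0.94 to 0.29 without 1 tumor, that of Osm -0.36 to 1.17 and that of Il6ra -0.40 to 1.03. With the muscle score as a covariate it was -0.0335 for Lif in D14 cabo, and -0.10 for Osmr and -0.39 for Lif in D14 IL-27+cabo. The cabo change at EOS minus that at D14 was, without 1 tumor, -2.84 to 0.71 for Osm. For Osmr (-2.02 to -0.54) and Lif (-2.41 to -0.84) it varied in size but stayed negative. Apart from what the construction of each fit shows (fewer tumors, more genes tested), the cause was not tested. At EOS a tumor had 0 to 39 counts of Il6 and 12 to 84 of Il11, which limits the precision of their values.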
